A study of Homo sapiens with 9 samples.

Results

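The AP-1 transcription factor genes JUN, JUNB, JUND, FOS, FOSB, FOSL1, FOSL2 and ATF3 were examined for binding by 4 subunits of SWI/SNF, a complex that remodels chromatin. A peak belonged to these 8 genes when the authors' own annotation named 1 of them as the nearest gene. By that rule 36 of 34575 ARID peaks were members, comprising 16 of 12852 ARID1A peaks, 4 of 8728 ARID1B peaks and 16 of 12995 ARID2 peaks. SNF5 peaks, of which there were 20718, carried no gene name and were compared with the 8 genes by position.

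The peaks came from ChIP-seq (chromatin immunoprecipitation followed by sequencing) in HepG2, an established human liver cancer cell line, without treatment or genetic change in the labels of the libraries used. ARID1A, ARID1B and ARID2 are alternative subunits that mark separate forms of SWI/SNF, and SNF5 (SMARCB1) is a core subunit. There were 2 libraries for each antibody and an input library, and the authors merged both libraries of an antibody before calling peaks. Each subunit is therefore represented by 1 pooled list, with no replicate error, and subunit, antibody and sequencing depth cannot be told apart in any comparison between lists.

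AP-1 is a dimer of basic leucine zipper proteins. JUN family proteins pair with each other or with FOS family proteins, whereas FOS family proteins need a JUN partner, and the dimers bind the TRE, a short palindrome-like site. ATF3 is a related, stress-induced member that also binds the CRE, the site of the CREB family. Most of these genes are immediate early genes, transcribed within minutes of a growth factor or stress signal, and their promoters hold sites for AP-1 and CREB family proteins and, in some cases, the CArG box bound by serum response factor (SRF).

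The stretches printed here lie upstream of the start site inside ARID peaks and show those of these sites that were found there. At most 300 bases of each peak were searched for them. In wider peaks the bound sequence farther upstream was not part of this search. The reference start site is the start of the reference transcript in the Gencode annotation and has position 0, with negative positions upstream. Each sequence is from GRCh37 (the same assembly as hg19), 5′ to 3′ in the direction of transcription. Capitals mark matches on either strand to the CRE (TGACGTCA), to its core (TGACGT, or ACGTCA when read on the other strand), to the CRE with any middle base (TGACNTCA) or to the CArG box. The core and the variant with any middle base were added after the sequences were seen.

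The JUN stretch, chr1:59249721-59249856 on the minus strand, lay in an ARID1A peak and held the variant TGACATCA at -67.
JUN: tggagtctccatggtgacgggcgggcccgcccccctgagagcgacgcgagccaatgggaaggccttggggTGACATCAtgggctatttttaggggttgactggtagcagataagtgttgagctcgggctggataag
The JUND stretch, chr19:18392433-18392732 on the minus strand, lay in both an ARID1A and an ARID2 peak and held a full CRE at -200 and a further core at -87.
JUND: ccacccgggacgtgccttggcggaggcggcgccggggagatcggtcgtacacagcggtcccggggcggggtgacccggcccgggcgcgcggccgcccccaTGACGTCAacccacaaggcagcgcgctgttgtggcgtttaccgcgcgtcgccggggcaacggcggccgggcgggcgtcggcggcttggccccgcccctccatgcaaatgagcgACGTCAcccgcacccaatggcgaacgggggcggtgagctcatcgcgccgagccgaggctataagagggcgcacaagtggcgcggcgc
The FOS stretch, chr14:75745442-75745528 on the plus strand, was shared by an ARID1A and an ARID2 peak and held a core at -64. The FOS ARID2 peak begins at -492 but was searched only from -300, so sites between these positions would have been missed.
FOS: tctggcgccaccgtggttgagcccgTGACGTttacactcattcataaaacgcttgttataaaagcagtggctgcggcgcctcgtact
The FOSB stretch, chr19:45970954-45971252 on the plus strand, lay in both an ARID1A and an ARID2 peak and held a CArG box at -274 and a core at -60.
FOSB: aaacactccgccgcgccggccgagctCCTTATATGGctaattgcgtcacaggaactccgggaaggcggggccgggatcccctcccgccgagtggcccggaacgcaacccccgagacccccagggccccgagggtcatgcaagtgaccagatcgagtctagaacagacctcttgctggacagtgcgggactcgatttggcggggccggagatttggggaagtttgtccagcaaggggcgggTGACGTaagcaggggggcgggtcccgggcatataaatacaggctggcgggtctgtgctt
The ATF3 stretch, chr1:212781797-212782096 on the plus strand, lay in an ARID2 peak and held a core at -88.
ATF3: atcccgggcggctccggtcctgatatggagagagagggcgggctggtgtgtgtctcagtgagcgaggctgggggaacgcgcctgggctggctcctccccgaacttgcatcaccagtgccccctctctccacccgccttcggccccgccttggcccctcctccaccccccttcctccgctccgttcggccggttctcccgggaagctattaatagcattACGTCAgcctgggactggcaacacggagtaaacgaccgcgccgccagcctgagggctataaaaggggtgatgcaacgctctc
The JUNB stretches searched, 300 bases in its ARID1A peak and 153 bases in its ARID2 peak, held no match and are not shown. At FOSL2 only the 48 bases directly upstream of the start site were searched, and they held no match. Its ARID1A and ARID2 peaks begin farther upstream, at -502 and -624, and that sequence was not part of this search.
FOSL2 held a TRE at position 4, just downstream of its start site, inside its ARID1A and ARID2 peaks, and a short window around it, chr2:28615722-28615742 on the plus strand, is shown with the TRE in capitals.
FOSL2: attgtagTGACTCAtctcggg

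How common these letters are was measured in the RefSeq promoter windows of the GRCh38 assembly, each running from 250 bases before to 50 bases after a gene's start. Of 35116 windows, 7.71% held a TRE (TGANTCA), 1.85% a CRE, 1.29% a CArG box, 7.98% a CRE core, 7.72% the CRE with any middle base and 45.0% a GC box (GGGCGG, the site of the SP1 family). Windows were matched for 7 of the 8 genes, the exception being FOSL1, and ATF3 had 2. Of these 8 windows, 1 held a TRE (FOSL2), 1 a CRE (JUND), 4 a CRE core (FOS, FOSB, FOSL2 and JUND) and 3 the variant (ATF3, JUN and JUND). GC boxes were found in windows of 6 genes, all but JUNB among those matched. The CArG box of FOSB lay upstream of its window, so 0 windows counted for that motif. The 2 ATF3 windows belong to other starts of the gene and did not hold the bound stretch printed for ATF3, so its core at -88 is not counted in them. These motifs overlap by construction, since every CRE is also a core and a variant, and a match is a string of letters and not a measured binding site.

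Peaks of ARID1A and ARID2 covered most AP-1 start sites, whereas ARID1B peaks covered none. The start site lay inside an ARID1A peak at 7 of 8 genes (87.5%, Wilson 95% interval 52.9 to 97.8%), all but FOSL1. Over all 18922 protein-coding genes with a reference transcript the share was 18.7%. ARID2 peaks covered the start sites of FOS, FOSB, FOSL2, JUNB and JUND, which is 5 of 8 (62.5%, interval 30.6 to 86.3%), against 12.2% over all genes. SNF5 peaks covered 8 of 8 (interval 67.6 to 100%), against 28.1%. ARID1B peaks covered 0 of 8 (interval 0 to 32.4%), against 2.99%, so the count for ARID1B was near its background. ARID1A, ARID2 and SNF5 peaks together covered 5 of 8 start sites, against 6.70% of all. The intervals cover counting error over genes only, and this comparison was added after the data were seen. The background includes genes not expressed in HepG2, and the study reported little ARID binding at such transcripts. The part of expression in these contrasts was not tested.

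**Figure D1:**
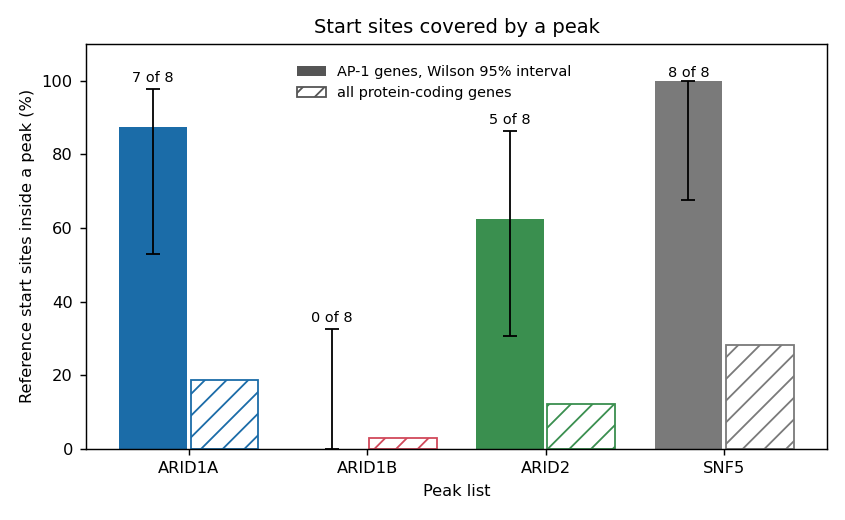
Share of reference start sites (%, vertical axis) that lay inside a peak of each list (horizontal axis). Solid bars are the 8 AP-1 genes with Wilson 95% intervals and hatched bars are all protein-coding genes. The solid bar stands above the hatched bar for ARID1A, ARID2 and SNF5, and ARID1B has 0 of 8.

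By the authors' nearest-gene assignment, 7 of 8 genes had an ARID1A peak, 3 an ARID1B peak and 8 an ARID2 peak. Among 20149 protein-coding genes of the annotation, 33.2% had an assigned ARID1A peak, 17.1% an ARID1B peak, 29.7% an ARID2 peak and 43.7% a peak of any ARID. This background, too, includes genes not expressed in HepG2. JUNB, FOSB and FOSL2 had peaks in all 3 lists, which is 3 of 8 genes against 10.1% of all. FOSB had 8 assigned ARID peaks in total, JUN and FOSL2 had 7 each, JUNB and JUND 4 each, ATF3 3, FOS 2 and FOSL1 1. Thus 3 of 8 genes had 7 or more, a number reached by 3.28% of all protein-coding genes. The cut of 7 was taken from these counts themselves, so the contrast is a description and not a test. Neighbouring peaks were counted separately, and no background was computed for joined peaks. Counts rather than heights are compared here, because the ARID lists held no peak score.

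**Figure D2:**
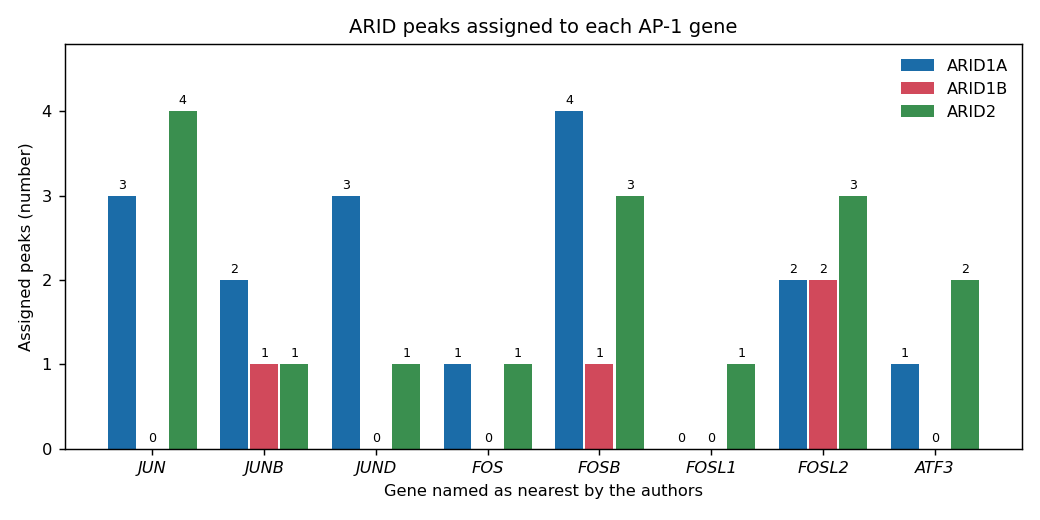
Number of peaks (vertical axis) that the authors assigned to each AP-1 gene (horizontal axis), with bars coloured by ARID subunit and the number above each bar. ARID2 has at least 1 peak at every gene, and ARID1B has peaks only at JUNB, FOSB and FOSL2.

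Among the JUN family genes, JUN itself, the founding AP-1 subunit, had 3 ARID1A, 0 ARID1B and 4 ARID2 peaks. The widest, an ARID1A peak of 1374 bp at chr1:59248483-59249856, ran from -137 to 1236 and so covered the start site and much of the 5′ UTR. It contained 2 ARID2 peaks, at 159 to 306 and at 722 to 1176. In the 3′ UTR an ARID1A peak of 448 bp (1832 to 2279) contained an ARID2 peak of 58 bp (2159 to 2216). A single ARID1A peak of 53 bp lay in the coding exon, and a single ARID2 peak of 132 bp lay near the end of the 3′ UTR. All 7 peaks overlapped SNF5, and 6 of them the same SNF5 peak, which was 2953 bp wide and wider than 98.5% of the SNF5 list. JUN is a gene without introns, and the ARID and SNF5 peaks were spread over its whole transcript.

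JUNB, which pairs with FOS proteins and often opposes JUN, had 2 ARID1A, 1 ARID1B and 1 ARID2 peak. At the start site the ARID1A peak (chr19:12901953-12902579, -347 to 279) covered an ARID2 peak at -153 to 10 and an ARID1B peak at 38 to 96. The ARID2 and ARID1B peaks did not touch each other and lay 27 bp apart, with ARID2 over the start site and ARID1B in the 5′ UTR. The other ARID1A peak, of 463 bp, lay upstream at -1845 to -1383 and was 394 bp from the nearest SNF5 peak.

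JUND, the JUN family gene with the most constant expression in many cell types, had 3 ARID1A peaks and 1 ARID2 peak by assignment. The ARID1A peaks lay over the start site (927 bp, -519 to 407), in the coding exon (104 bp, 743 to 846) and at the 3′ UTR (792 bp, 1107 to 1898). The ARID2 peak was 1078 bp wide at 1503 to 2580, shared 396 bp with the last of these and had its midpoint downstream of the gene. A further ARID2 peak covered the JUND start site (chr19:18392331-18392764, -332 to 101) and lay entirely within the ARID1A peak there, but it was assigned to the microRNA gene MIR3188. The nearest-gene rule thus left out the ARID2 peak at the JUND promoter, and the count of ARID2 peaks for JUND is a count of assignments.

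Among the FOS family genes, FOS had the simplest pattern, with 1 ARID1A peak (318 bp, -89 to 228) and 1 ARID2 peak (626 bp, -492 to 133). They shared 223 bp across the start site, which was 70.1% of the ARID1A peak. The ARID2 peak extended farther upstream and the ARID1A peak farther into the 5′ UTR. Both lay entirely within 1 SNF5 peak of 1120 bp.

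FOSB had 4 ARID1A, 1 ARID1B and 3 ARID2 peaks. At its start site an ARID1A peak of 457 bp (-385 to 71) lay wholly inside an ARID2 peak of 571 bp (-462 to 108). The other 3 ARID1A peaks lay in introns, with starts at 902, 1472 and 1910, and the ARID1B peak (128 bp, 1370 to 1497) shared 26 bp with the middle one. The other ARID2 peaks lay upstream at -826 to -695 and in a coding exon at 471 to 715. At FOSB, then, ARID1A and ARID2 coincided at the start site and were separate inside the gene, where 0 ARID1A peaks overlapped an ARID2 peak. A SNF5 peak of 2504 bp overlapped 7 of the 8 peaks, and the last ARID1A peak lay 107 bp beyond it.

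FOSL1, which encodes FRA-1, had the fewest assigned peaks. Its sole assigned ARID peak was an ARID2 peak of 175 bp in an intron (chr11:65666584-65666758, 1101 to 1275), which overlapped neither another ARID nor SNF5 and lay 195 bp from the nearest SNF5 peak. An ARID1A peak of 256 bp lay in the FOSL1 3′ UTR, at 7844 to 8099, and was assigned to CCDC85B. A SNF5 peak of 1069 bp covered the FOSL1 start site and overlapped 0 ARID peaks. FOSL1 was the only one of the 8 genes with SNF5 at its start site and neither ARID1A nor ARID2 over it.

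FOSL2, which encodes FRA-2, had 2 ARID1A, 2 ARID1B and 3 ARID2 peaks. At the start site the ARID1A peak (1151 bp, -502 to 648), the ARID1B peak (357 bp, 44 to 400) and the ARID2 peak (902 bp, -624 to 277) shared a common stretch of 234 bp just downstream of the start. It was the only assigned region in which peaks of all 3 ARIDs had bases in common. Inside the gene, in intronic sequence, ARID2 peaks of 52 and 172 bp and an ARID1B peak of 296 bp (3607 to 3902) stood apart from each other under a SNF5 peak of 2338 bp. The remaining ARID1A peak, 167 bp wide and upstream at -1642 to -1476, overlapped no other list.

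ATF3, which dimerizes with JUN proteins and is induced by stress, had 1 ARID1A and 2 ARID2 peaks, all near the start of its reference transcript and none at the upstream start of its longer transcripts. The ARID2 peak (494 bp, -500 to -7) ended at the base where the ARID1A peak (228 bp, -7 to 220) began, and they shared 1 bp. ARID2 thus lay upstream of the start site and ARID1A over and downstream of it. A small ARID2 peak of 57 bp followed in the intron at 463 to 519. All 3 overlapped a SNF5 peak of 1218 bp.

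**Figure D3:**
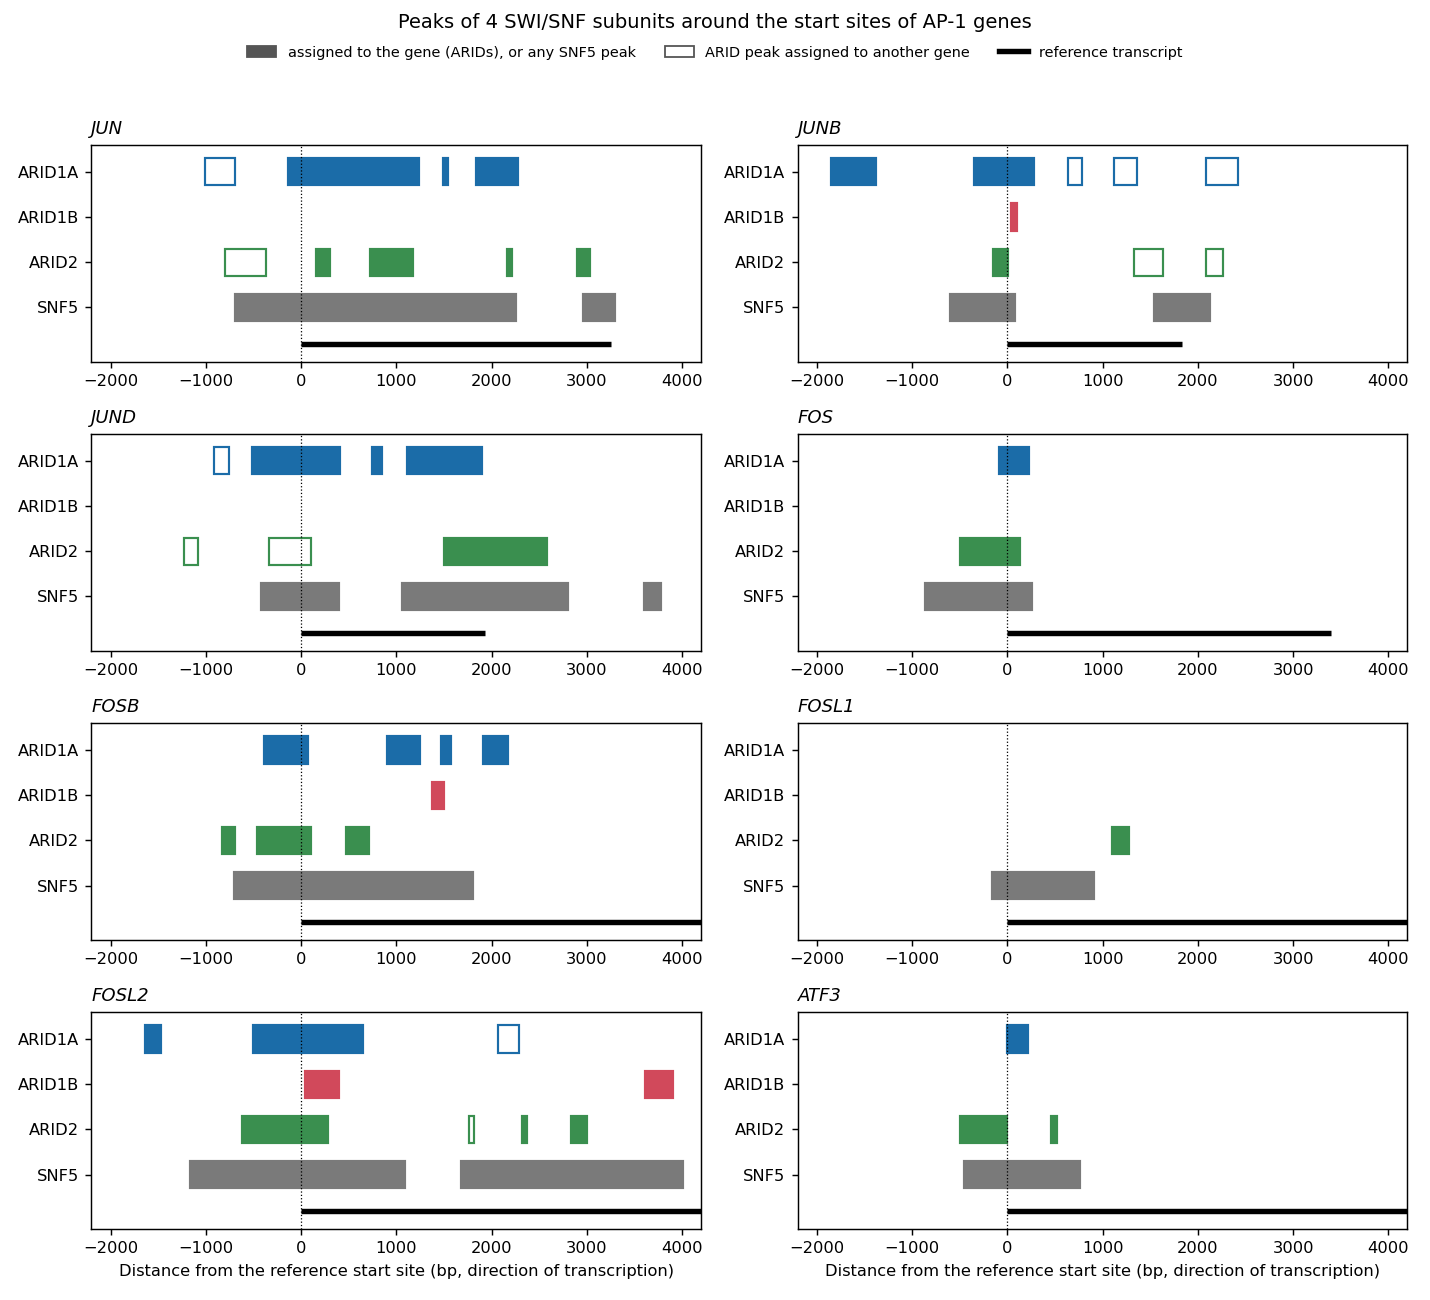
Peaks of ARID1A (blue), ARID1B (red), ARID2 (green) and SNF5 (grey) around each AP-1 start site, with distance from the reference start site in bp along the direction of transcription on the horizontal axis. Open boxes are ARID peaks assigned to another gene and the black bar is the reference transcript. At JUND the ARID2 peak over the start site is open, and at FOSL1 the SNF5 peak over the start site has no ARID peak above it.

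The 36 peaks were mostly near start sites. The authors placed 12 of 16 ARID1A peaks (75%, interval 50.5 to 89.8%), 4 of 4 ARID1B peaks (interval 51.0 to 100%) and 11 of 16 ARID2 peaks (68.8%, interval 44.4 to 85.8%) in their promoter class. That class held 72.6% of all ARID1A peaks, 37.9% of all ARID1B peaks and 67.0% of all ARID2 peaks. The ARID1A and ARID2 shares at AP-1 genes were near their backgrounds. The whole-list ARID1B share lay under the interval, which rests on 4 peaks at 3 genes. The promoter class counts the start of any transcript, and only 20 of the 36 midpoints lay within 1000 bp of the reference start site, with the farthest at 3755 bp. By midpoint, 11 peaks lay upstream of the reference transcript, 8 in a 5′ UTR, 3 in coding exons, 9 in introns, 4 in 3′ UTRs and 1 downstream. All 4 ARID1B midpoints lay downstream of the start site, 2 in 5′ UTRs and 2 in introns.

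Overlap with SNF5 was seen for 12 of 16 ARID1A peaks (75%, interval 50.5 to 89.8%), 4 of 4 ARID1B peaks (interval 51.0 to 100%) and 15 of 16 ARID2 peaks (93.8%, interval 71.7 to 98.9%). In the whole lists, 71.3% (ARID1A), 62.9% (ARID1B) and 67.2% (ARID2) of peaks overlapped SNF5. The ARID1A share was thus near its background, and the ARID2 share was higher than its own. Peaks at 1 gene often met the same SNF5 peak and are not independent. The intervals are therefore too narrow, and they do not set the ARID2 share apart from its background. The 5 peaks without SNF5 were 4 ARID1A peaks, at JUNB, JUND, FOSB and FOSL2, and the FOSL1 ARID2 peak. They lay 394, 216, 107, 314 and 195 bp from the nearest SNF5 peak, in that order.

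Overlap with another ARID was seen for 10 of 16 ARID1A peaks (62.5%, interval 38.6 to 81.5%), 3 of 4 ARID1B peaks (75%, interval 30.1 to 95.4%) and 9 of 16 ARID2 peaks (56.3%, interval 33.2 to 76.9%). Whole-list shares came to 47.6% (ARID1A), 40.1% (ARID1B) and 46.9% (ARID2), and each lay inside the interval for the AP-1 peaks. The deposited single or multiple label gave the same answer for 36 of 36 peaks. Joined where they overlapped, the 36 peaks and any ARID peak touching them formed 24 regions, whatever gene the touching peak was assigned to. Of these, 6 held ARID1A alone, 7 ARID2 alone, 1 ARID1B alone, 7 ARID1A with ARID2, 1 ARID1A with ARID1B and 2 all 3 ARIDs, the last being the start-site regions of JUNB and FOSL2. Over all ARID peaks, 7.55% of 25247 regions held all 3. SNF5 overlapped all 10 regions with more than 1 ARID, 2 of the 6 with ARID1A alone and 6 of the 7 with ARID2 alone. The SNF5 shares of these classes over all regions were not computed, so these counts cannot be called a trait of AP-1 genes. Region classes other than that with all 3 ARIDs have no background here either. By assigned peaks only, the JUND start-site region would count as ARID1A alone, giving 7 such regions and 6 with ARID1A and ARID2.

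**Figure D4:**
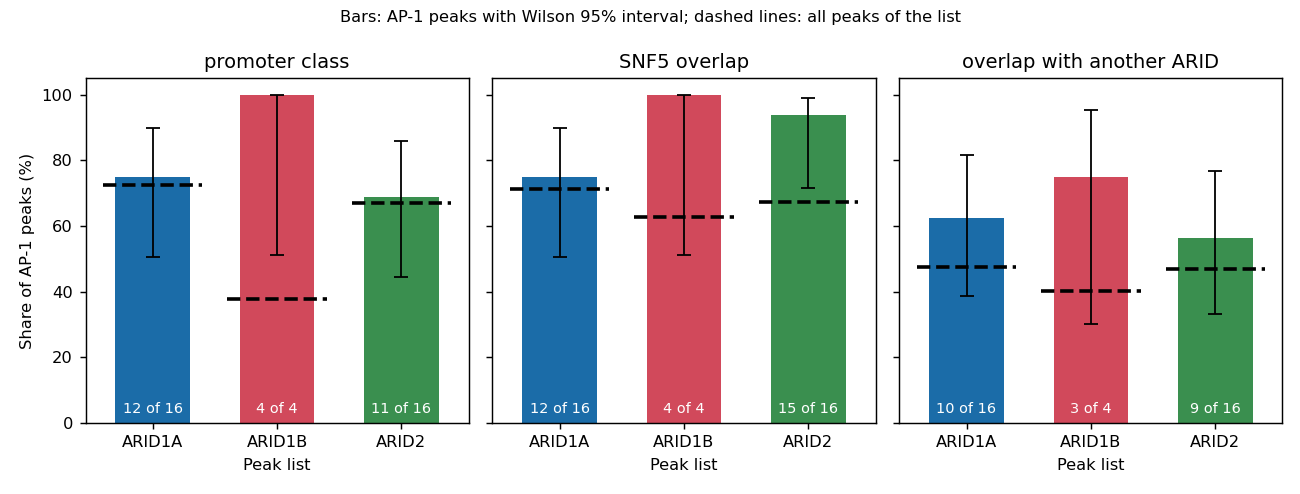
Share of AP-1 peaks (%, vertical axis) in the promoter class, overlapping SNF5 and overlapping another ARID, for each ARID list (horizontal axis). Bars carry Wilson 95% intervals and dashed lines give the share over the whole list. The dashed line lies below the interval for ARID1B in the promoter panel and for ARID2 in the SNF5 panel, and inside the interval in the other 7 cases. The intervals treat peaks at the same gene as independent, which they are not, and are therefore too narrow.

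By median, ARID1A peaks were the widest of the 3 ARID lists at these genes and in the lists as a whole. They at AP-1 genes had a median width of 399.5 bp (53 to 1374 bp), against 218 bp over the list. ARID1B peaks had a median of 212 bp (59 to 357 bp), against 164 bp, and ARID2 peaks one of 173.5 bp (52 to 1078 bp), against 189 bp. The widest ARID1A peaks were those over the start sites of JUN, FOSL2 and JUND. Together the peaks covered 7830 bp (ARID1A), 840 bp (ARID1B) and 5461 bp (ARID2). The median GC content was 65.9% (ARID1A), 64.7% (ARID1B) and 65.8% (ARID2), beside list medians of 64.1%, 52.1% and 57.2%. ChIP was done on chromatin digested with micrococcal nuclease, and the part of GC content or depth in these widths and counts was not tested.

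Each ARID peak carried a deposited chromatin state. The state was active promoter for 18 of the 36 peaks, strong enhancer for 7, weak promoter for 6, weak enhancer for 4 and transcription transition for 1. Over all ARID peaks, 54.7% were in active promoter, 21.8% in strong enhancer and 10.3% in weak promoter. The weak enhancer states held 3.07% and 0.740%, and transcription transition 0.674%. By subunit, 8 of 16 ARID1A and 10 of 16 ARID2 peaks were in the active promoter state, and 0 of 4 ARID1B peaks. The list-wide share of that state was 62.6% for ARID1A and 61.9% for ARID2. It was not computed for ARID1B, but must be lower there, since the share over all ARID peaks was 54.7%. The count of 0 of 4 therefore cannot be set beside the ARID1A and ARID2 shares. Of the 4 ARID1B peaks, 3 were in strong enhancer, a state held by 33.4% of the ARID1B list, and 1 was in weak enhancer, and all 4 were in the promoter class by distance.

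SNF5 peaks were also described by score, which the peak caller gives as a whole number and which ranks peaks within that list only. Within 10000 bp of the 8 gene bodies there were 22 SNF5 peaks with a median score of 21.5 (15 to 31), and 16 of them overlapped an ARID peak, against 50.9% of all SNF5 peaks. Over the start sites, JUND had a score of 31, FOS and FOSL2 28 each, FOSB and ATF3 26 each, JUN 23, FOSL1 21 and JUNB 18. Their median was 26 and their median width 1169 bp. The whole list had medians of 19 and 535 bp. A closer comparison is with the 4847 SNF5 peaks that cover any protein-coding start site, whose median score was 22 (quartiles 18 and 26) and median width 908 bp (quartiles 566.5 and 1418 bp). JUND and JUNB therefore stood at opposite ends of the AP-1 order, JUND with a higher score than 92.3% of the list and JUNB with a higher score than 35.8%. JUN had the widest start-site peak and JUNB, at 681 bp, the narrowest. With no replicates, neighbouring scores cannot be called different.

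**Figure D5:**
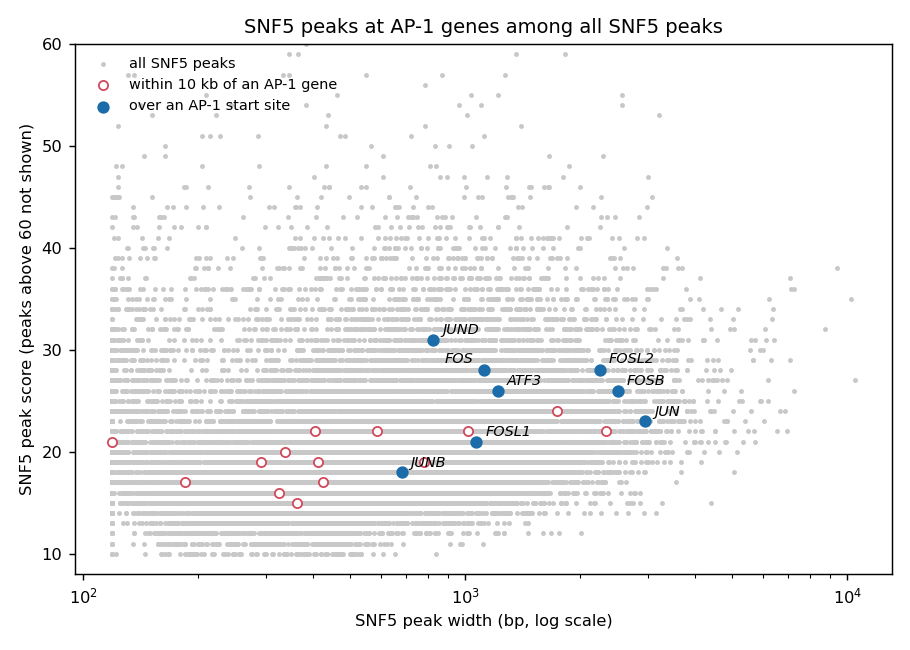
Score (vertical axis, whole numbers) against width (horizontal axis, bp, log scale) of SNF5 peaks. Grey points are all SNF5 peaks, 29 of which score above the axis limit of 60, open red circles lie within 10000 bp of an AP-1 gene and filled blue circles cover an AP-1 start site. JUND has the highest score of the blue circles and JUN the greatest width.

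Several ARID peaks at these loci were assigned to neighbouring genes. Within 10000 bp of the 8 gene bodies lay 30 ARID1A, 5 ARID1B and 27 ARID2 peaks, of which 14, 1 and 11 were assigned to other genes. Besides the ARID2 peak at the JUND promoter, these included an ARID1A peak (-1009 to -693) and an ARID2 peak (-799 to -372) upstream of JUN, given to the noncoding gene RP4-794H19.2. At JUNB, ARID1A peaks at 637 to 783 and 1120 to 1364 and an ARID2 peak at 1329 to 1632 lay inside the JUNB transcript and were assigned to HOOK2. In intronic sequence of FOSL2, an ARID1A peak of 219 bp and an ARID2 peak of 52 bp were assigned to AC104695.3. At FOSL1, 4 ARID1A peaks and 1 ARID2 peak within this window were assigned to other genes, so its ARID1A count was 0 by assignment and 4 by position. These 4 ARID1A peaks lay 7844 bp or more downstream of the FOSL1 start and were assigned to FIBP or CCDC85B. Only 1 of them overlapped the FOSL1 gene. Only FOS and ATF3 had the same number of ARID peaks by position as by assignment, 2 and 3, and by position FOSL1, with 6, had more than either.

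Other genes of the same pathways were counted in the same way. Of 28 further basic leucine zipper genes, 15 had an ARID1A, 9 an ARID1B and 13 an ARID2 peak, and ATF2, ATF6, ATF7, CREB1, CREM, MAFK, NRL and NFE2L1 had all 3. Of 32 other immediate early genes, 22 had an ARID1A, 14 an ARID1B and 21 an ARID2 peak. The 13 with all 3 included the phosphatase genes DUSP1 and DUSP6, the mRNA decay genes ZFP36, ZFP36L1 and ZFP36L2, KLF6, KLF10, IER3, IER5, CTGF, MCL1, MYC and GADD45B. Of 21 kinases and factors that act upstream of AP-1, 10 had an ARID1A, 4 an ARID1B and 8 an ARID2 peak, and MAPK14 (p38), MAP2K2 and SRF had all 3. The median number of assigned ARID peaks was 4 for the AP-1 genes, 2 for the other basic leucine zipper genes, 3 for the other immediate early genes and 1 for the upstream list. The genes whose counts matched those of FOSB (4 ARID1A, 1 ARID1B and 3 ARID2 peaks) numbered 6, of which BCAS4, BMPR2 and CDC42EP2 come first by name. To check the cell label, 13 of 15 hepatocyte genes had an ARID peak, against 1 of 10 blood cell genes and 3 of 10 neuron genes.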

How the data were processed

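Per the labels and the study's methods, the authors aligned reads to hg19 with Bowtie2, filtered duplicates, merged both replicates of each antibody and called broad peaks with MACS2. They joined close peaks, removed blacklisted regions and named the nearest gene from Gencode. Whether the input served as control is not given in the sources used here. The deposited ARID lists give positions, a feature class, a distance in bp, a gene, a label and a chromatin state, with no read counts. The deposited SNF5 list gives the authors' whole-number score. Depth is unknown, so no detection limit is given.

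Here the deposited distance fitted peak midpoints, within 5 bp, for 63.3% (ARID1A), 66.2% (ARID1B) and 64.1% (ARID2) of the 10515, 6314 and 10480 peaks whose gene name was found, measured on Gencode 44 starts, which also supplied gene positions. Overlap meant at least 1 shared bp. Motifs were searched on both strands. Python 3.11.15, pandas 2.3.3, SciPy 1.17.1 and pysam 0.24.0 were used, and the overlap code was tested on simulated data. Shares carry Wilson 95% intervals, and no hypothesis test was run, since each subunit has 1 list. The 8 genes, the gene lists and the motifs were chosen with earlier results of these data known. All 8 genes are named, the like-gene rule took the 3 genes nearest in counts to the gene with the most peaks, and from the other gene lists those with peaks of all 3 ARIDs are named. Alternatives changed the window, width, overlap rule, promoter distance and SNF5 score.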

Additional observations from a re-analysis of the deposited data

How the results depend on the processing

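No paired analysis was possible because both replicates of each antibody were merged before peaks were called, and for the same reason leaving out a replicate could not be run. Of 50 alternatives over 19 results, 28 kept the value within its interval or within 1.5 times the count and 22 moved it. The 8 alternatives on start-site coverage were chosen after seeing the data. Counting every peak within 50000 bp of a gene body in place of assigned peaks gave 47 ARID1A, 8 ARID1B, 34 ARID2 and 43 SNF5 peaks, and 5 genes with all 3 ARIDs. Joining peaks at most 1000 bp apart gave 8 ARID1A and 9 ARID2 peaks. Requiring a reciprocal overlap of 50% lowered SNF5 overlap to 18.8% (ARID1A), 0% (ARID1B) and 12.5% (ARID2), and overlap with another ARID to 12.5%, 0% and 12.5%. Allowing a gap of 1000 bp raised SNF5 overlap to 100% for ARID1A and ARID2, and overlap with another ARID to 93.8%, 100% and 93.8%. A promoter limit of 2000 bp raised the promoter share to 93.8% for ARID1A and 87.5% for ARID2. Whole-list shares were not computed under these alternative rules, so the changed shares have no background beside them. An SNF5 score of at least 20 left 14 SNF5 peaks. ARID1B peaks lay within 100 bp of 2 start sites, beside 0 covered. The overlap shares moved with the overlap rule in all 3 lists, while start-site coverage by ARID1A, ARID2 and SNF5 did not move by more than 1 gene.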
